A study of Mus musculus with 4 samples.

Results

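The CXC chemokines Cxcl1, Cxcl2, Cxcl3 and Cxcl16 and the receptors Cxcr2 and Cxcr4 are genes of neutrophil traffic, and are 6 of the 31053 genes in the count tables. They were taken by name, as a set of CXC ligands and receptors. All 6 were detected. They were measured by single-cell RNA sequencing of live CD45+ cells, that is, white blood cells negative for propidium iodide, sorted from 3 mm excisional wounds in the dorsal skin of 8-week-old male mice. Mice were C57BL6/J with the Angptl4+/+ genotype or Angptl4-/-, a whole-body knockout of the secreted protein angiopoietin-like 4 on a background labelled C57BL6/J, and wounds were taken at 1 or 5 days post-wounding (dpw). Each combination of genotype and day was 1 library, so there were 4 libraries and no replicates. The number of mice behind each library was not given in the sources used here. No test between groups was therefore possible, and a difference between genotypes cannot be told apart from a difference between these libraries. All intervals are exact 95% intervals that cover counting error only.

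CXC chemokines are small secreted proteins that guide white blood cells along a gradient. Cxcl1, Cxcl2 and Cxcl3 carry the Glu-Leu-Arg motif of the neutrophil-attracting ligands and bind Cxcr2, the main chemokine receptor by which mouse neutrophils leave the marrow and enter inflamed tissue. Cxcr4 binds Cxcl12, holds neutrophils in the marrow and is known to be higher on aged neutrophils. Cxcl16 is made as a membrane-bound protein that Adam10 and Adam17 can shed, and its receptor is Cxcr6, found mainly on T cells and NK cells. The ligands of Cxcr2 are immediate targets of NF-kB signalling, and their messages are short-lived.

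The 3 Cxcr2 ligands lie together on chromosome 5, whereas the other 3 genes lie elsewhere (GRCm38, GENCODE M21). Cxcl3 spans chr5:90786103-90789600, Cxcl1 spans chr5:90891241-90893115 and Cxcl2 spans chr5:90903871-90905938, all on the plus strand. From the start of Cxcl3 to the end of Cxcl2 the group covers 119836 bases. Cxcl16 spans chr11:70453983-70459984 on the minus strand, Cxcr2 spans chr1:74153989-74161246 on the plus strand and Cxcr4 spans chr1:128588199-128592293 on the minus strand. RefSeq promoter windows (GRCm38.p6) were matched for 5 of the 6 genes, all but Cxcl16.

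A stretch of 100 bases is printed for each of the 3 Cxcr2 ligands because the same pair of letter runs stood in each. Each stretch ends just before the earlier of the RefSeq and GENCODE starts. The 3 genes moved together between days in macrophage-like cells, but not in Angptl4+/+ neutrophil-like cells. There the log2 ratios were 1.63 for Cxcl1, -0.25 for Cxcl2 and -0.45 for Cxcl3. The part of the runs in these changes was not tested. The capitals mark GGGAATTTCCC, whose first 10 bases fit the NF-kB consensus, and ATAAAAGG, which is of the TATA-box type. The stretches end 1, 5 and 29 bases before the RefSeq start of Cxcl3, Cxcl1 and Cxcl2, and run 5′ to 3′ on the plus strand.
Cxcl3, chr5:90786001-90786100: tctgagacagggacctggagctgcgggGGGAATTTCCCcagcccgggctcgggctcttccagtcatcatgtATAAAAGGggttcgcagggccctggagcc
Cxcl1, chr5:90891141-90891240: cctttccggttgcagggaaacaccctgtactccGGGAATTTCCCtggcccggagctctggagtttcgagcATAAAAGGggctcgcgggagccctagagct
Cxcl2, chr5:90903771-90903870: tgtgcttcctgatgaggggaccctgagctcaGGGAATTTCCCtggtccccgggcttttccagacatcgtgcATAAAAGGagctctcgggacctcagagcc

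They were the 2 runs of at least 8 bases that the 250 bases before the start sites of all 3 genes shared, and were then searched in such windows on both strands. GGGAATTTCCC, of 11 bases, was found in 14 of 32851 promoters (0.0426%). ATAAAAGG was found in 507 of them (1.54%). Cxcl1, Cxcl2 and Cxcl3 were the 3 promoters that held both (0.00913%), as the choice of the runs fixed for these genes. Neither run was found in the windows of Cxcr2 or Cxcr4. The runs do not overlap each other, and a match describes letters and not a bound site.

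After removal of 242 barcodes, 19827 cells remained, between 4738 and 5346 per library, with 26898397 to 32815888 counted molecules (UMIs) per library and medians of 3736 to 4976 UMIs per cell. Pairs of libraries shared 4 to 15 barcodes. Angptl4 had 47 and 78 UMIs in the Angptl4+/+ libraries at 1 and 5 dpw and 0 in both Angptl4-/- libraries, which is at least 13.1-fold and at least 23.7-fold lower against a floor of 3 UMIs per library. The cells formed 12 clusters, which were put into 6 classes from marker genes, so their shares rest on rebuilt names. All 10 neutrophil markers were found in the neutrophil-like cells, which held 72.7% and 77.1% of the cells at 1 dpw and 54.6% and 73.9% at 5 dpw in Angptl4+/+ and Angptl4-/- wounds. Macrophage-like cells held 21.5% and 17.6% at 1 dpw and 31.1% and 13.5% at 5 dpw. Markers of keratinocytes, fibroblasts and endothelium summed to at most 16.9 CPM, the UMIs of a gene or list per 1000000 UMIs of the class, and mast cell or basophil markers were at or near 0 in all classes but the NK cell/T cell-like one, with 815 CPM in the Angptl4-/- library at 5 dpw, and the macrophage-like one in Angptl4+/+ wounds at 5 dpw (32.9 CPM).

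Each gene was compared across classes as CPM, which sets levels of one gene against itself and not one gene against another. Cxcl2 was highest in neutrophil-like cells, at 33912 CPM in Angptl4+/+ and 32759.5 CPM in Angptl4-/- wounds at 1 dpw, and at 28537 and 30751 CPM at 5 dpw. Those levels lay above every other class in every library. Macrophage-like cells were next, from 1867 to 9955 CPM, and their range overlapped those of the monocyte-like cells (1647 to 3165 CPM) and the NK cell/T cell-like cells (546 to 4704 CPM). Cxcl3 followed the same first places, with 1594 to 2254 CPM in neutrophil-like and 166 to 1786 CPM in macrophage-like cells, and these 2 ranges overlapped.

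**Figure D1:**
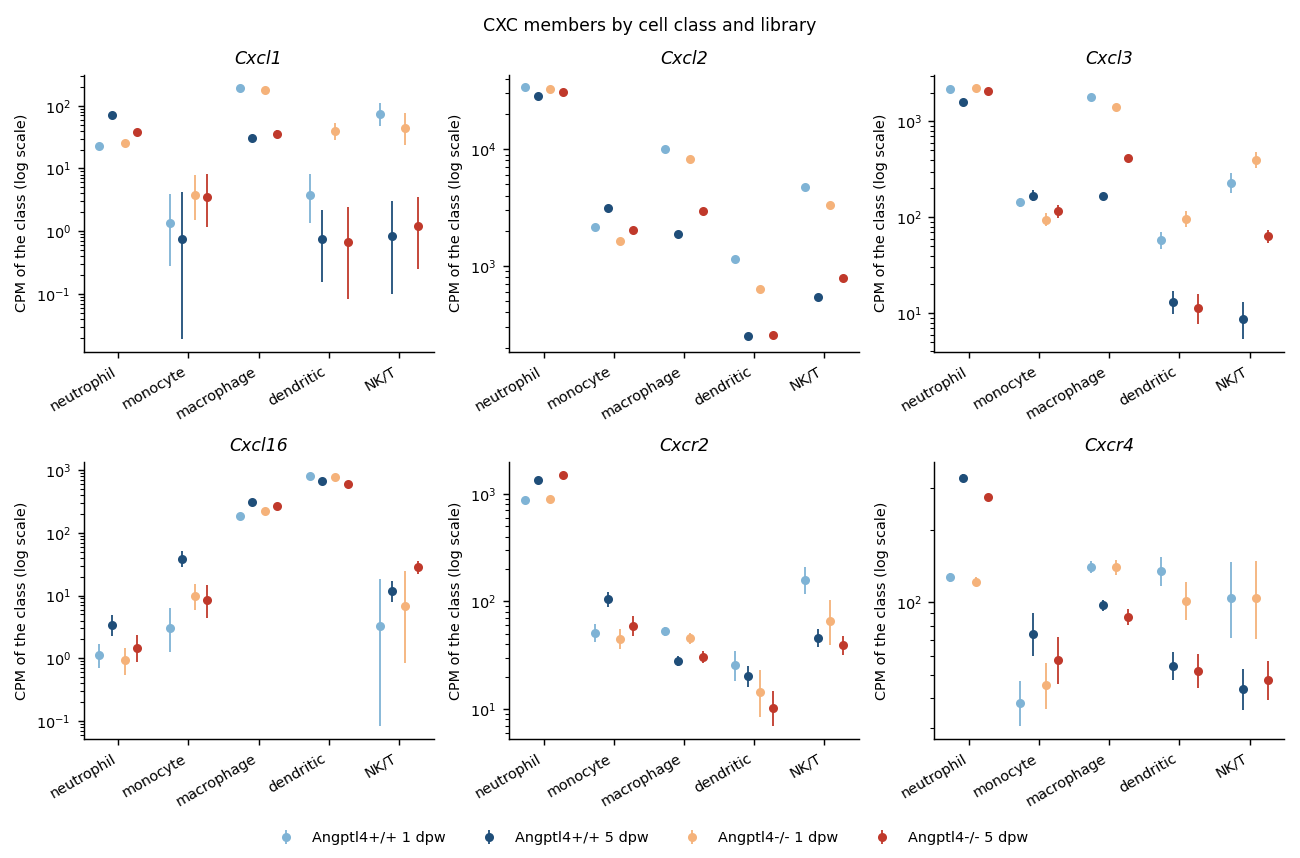
Levels of the 6 genes in CPM on a log axis, by cell class, with 1 point per library and bars for the exact Poisson 95% interval. Cxcl2 and Cxcr2 stand highest in neutrophil-like cells in all 4 libraries and Cxcl16 in dendritic cell-like cells, while Cxcl1 in macrophage-like cells runs from 30.8 to 189 CPM with both 1 dpw libraries above both 5 dpw libraries.

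Cxcl1 had its highest median in macrophage-like cells, with 189 and 179 CPM at 1 dpw and 30.8 and 35.9 CPM at 5 dpw in Angptl4+/+ and Angptl4-/- wounds. In neutrophil-like cells it stood at 22.8 and 25.4 CPM at 1 dpw and at 70.7 and 37.8 CPM at 5 dpw. Macrophage-like cells thus held more of it at 1 dpw in both genotypes. At 5 dpw neutrophil-like cells held more in Angptl4+/+ wounds, while in Angptl4-/- wounds the intervals of the 2 classes overlapped (31.8 to 40.4 and 34.5 to 41.4 CPM). Macrophage-like cells held 77.9% and 66.2% of all Cxcl1 UMIs at 1 dpw, and neutrophil-like cells held 60.0% and 61.8% at 5 dpw. The dendritic cell-like cells of the Angptl4-/- library at 1 dpw had 46 Cxcl1 UMIs, and 38 of them came from 1 cell.

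Cxcr2 was a neutrophil gene in these wounds. It stood at 872 CPM in Angptl4+/+ and 901 CPM in Angptl4-/- neutrophil-like cells at 1 dpw, and at 1340 and 1496 CPM at 5 dpw, while the highest level of any other class was 159 CPM, in the 40 NK cell/T cell-like cells of the Angptl4+/+ library at 1 dpw. Neutrophil-like cells supplied between 94.3% and 97.7% of its UMIs. Cxcr4 was spread more widely, at 122 to 329 CPM in neutrophil-like, 87.0 to 141 CPM in macrophage-like and 51.8 to 135 CPM in dendritic cell-like cells, with ranges that overlapped from each class to the next. The B cell-like class, with 2 to 27 cells per library, had 92.2 to 529 CPM from 2 to 16 UMIs. Between 60.9% and 76.4% of its UMIs came from neutrophil-like cells.

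Cxcl16 had the opposite distribution. Dendritic cell-like cells, a cluster led by Fscn1, Ccl22 and Ccr7, held 812, 678.5, 779 and 607 CPM in the libraries Angptl4+/+ at 1 and 5 dpw and Angptl4-/- at 1 and 5 dpw. Macrophage-like cells held 182.5, 307, 222 and 266 CPM in the same order, and neutrophil-like cells between 0.927 and 3.36 CPM. Its ranges in the first 2 classes did not overlap each other or those of any other class. Macrophage-like cells, being more numerous, still held the larger part of its UMIs, 52.2% to 58.7%, against 39.7% to 45.3% for the dendritic cell-like cells. In a finer clustering (Louvain resolution 1.0) the dendritic cell-like cells formed 2 clusters. One had 428 cells led by Siglech and Cd209a, and the other had 273 cells led by Fscn1 and Ccl22. The levels of Cxcl16 given here are those of the mixed class.

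Free RNA in the droplets puts UMIs of abundant neutrophil messages into other cells, so levels outside neutrophils were set against 7 neutrophil markers. The median marker in the macrophage-like class was at 6.27% and 4.98% of its neutrophil-like level at 1 dpw, and at 1.79% and 1.87% at 5 dpw, in Angptl4+/+ and Angptl4-/- wounds. Cxcr2 stood at 6.05% and 5.04% at 1 dpw and at 2.09% and 2.04% at 5 dpw. Its level in macrophage-like cells was thus within the span of the markers in all 4 libraries and is read as background, not as expression. For the same reason Cxcl2, Cxcl3 and Cxcr2 in the monocyte-like cells, at 3.99% to 11.1% of the neutrophil level where the median marker was at 3.78% to 10.2%, are not read as expression. Nor are Cxcl2 and Cxcr2 in the NK cell/T cell-like cells. They stood at 1.91% to 18.3%, where the median marker was at 2.90% to 17.3%, within the span of the markers in all 4 libraries. The Cxcr2 UMIs of macrophage-like cells were clumped, with 32.4% to 51.5% of them in 10 cells per library. Called doublets, droplets taken to hold more than 1 cell, were kept. Whether this background came from free RNA or from doublets was not tested.

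The ligands in macrophage-like cells, taken as 1 class, were above that background. Cxcl2 stood at 29.4% and 25.01% of the neutrophil level at 1 dpw and at 6.54% and 9.68% at 5 dpw. Cxcl3 stood at 81.8% and 62.7% at 1 dpw and at 10.4% and 19.98% at 5 dpw. The highest marker, Mxd1, reached 24.4% and 23.0% at 1 dpw and 5.54% and 7.23% at 5 dpw, close to Cxcl2 at 1 dpw in both genotypes but below it in all 4 libraries. Dendritic cell-like cells held 251 to 1154 CPM of Cxcl2, and 10 cells held 72.1% to 87.5% of these UMIs. This was 0.825% to 3.40% of the neutrophil level, where the median marker was at 0.629% to 2.13%. It lay within the span of the markers in all 4 libraries and is not read as expression.

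**Figure D2:**
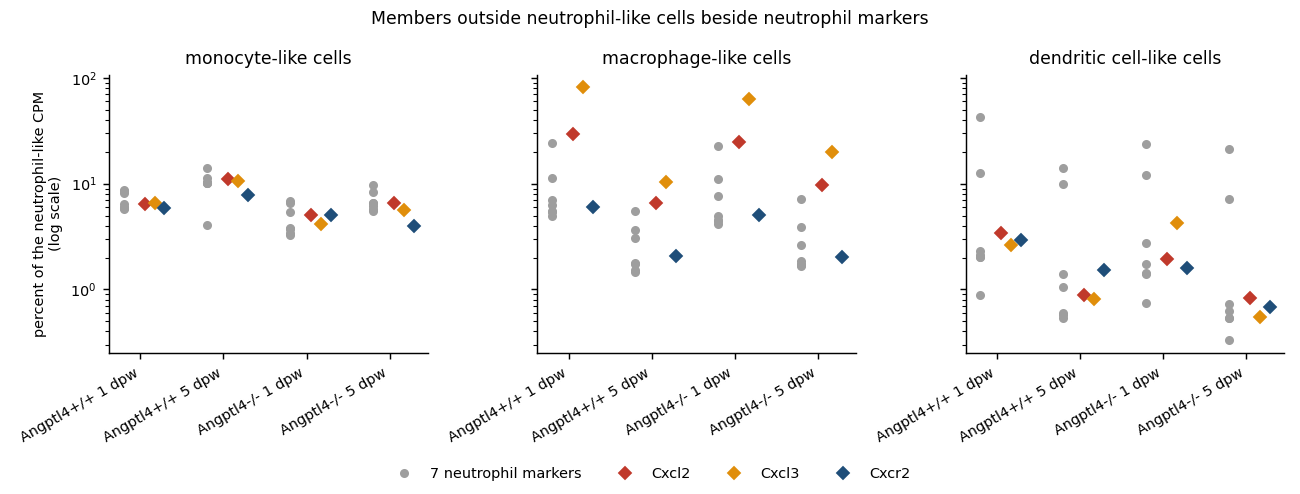
Levels in each class outside the neutrophil-like cells, as a percentage of the neutrophil-like level on a log axis, with the 7 neutrophil markers in grey. Cxcr2 lies among the grey points in macrophage-like cells, at 2.04% to 6.05%, whereas Cxcl3 lies above them, at 10.4% to 81.8%.

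To compare shares of cells at 1 depth, each cell was thinned to 1000 UMIs, and shallower cells were left out. In the order Angptl4+/+ at 1 and 5 dpw and Angptl4-/- at 1 and 5 dpw, 3852 of 3887, 2586 of 2699, 3678 of 3701 and 3410 of 3499 neutrophil-like cells were kept, and the median depths before thinning were 4683, 3218, 4636 and 3393 UMIs. Cxcl2 was found in 99.0% and 99.3% of neutrophil-like cells at 1 dpw and in 92.7% and 93.3% at 5 dpw, in Angptl4+/+ and Angptl4-/- wounds. Without thinning the shares were 99.8% and 99.9%, then 95.5% and 96.8%. In the dendritic cell-like cells, with median depths of 12978 to 14143 UMIs, 6.86% to 27.3% of thinned cells had a Cxcl2 UMI. The shares were 22.4% to 32.6% in the monocyte-like cells and 8.94% to 37.5% in the NK cell/T cell-like cells. Cxcl2 is not read as expression in the dendritic cell-like, monocyte-like or NK cell/T cell-like cells. Nearly every neutrophil-like cell therefore had at least 1 UMI of the ligand, while its level differed between the clusters described below.

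Cxcl3 was found in 56.4% and 56.7% of thinned neutrophil-like cells at 1 dpw and in 32.6% and 38.4% at 5 dpw (unthinned 71.5% and 71.2%, then 41.3% and 49.7%). Cxcr2 was found in 49.5% of them in both genotypes at 1 dpw and in 59.8% and 63.3% at 5 dpw (unthinned 81.2% and 79.7%, then 77.6% and 81.2%), against 1.47% to 2.33% of dendritic cell-like cells. Cxcr4 was found in 11.8% of them in both genotypes at 1 dpw and in 24.5% and 21.3% at 5 dpw (unthinned 35.4% and 32.2%, then 46.1% and 43.8%). The thinned shares put fewer cells with Cxcl3 and more with Cxcr2 and Cxcr4 at 5 dpw in both genotypes. For Cxcr2 the unthinned shares gave the other order in Angptl4+/+ wounds.

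The tenth of thinned neutrophil-like cells with the most Cxcl2 held 23.0% and 24.5% of its UMIs at 1 dpw and 33.8% in both genotypes at 5 dpw. The tenth with the most Cxcl3 held 45.2% and 43.2% at 1 dpw and 67.7% and 60.2% at 5 dpw. The mean per thinned cell was 27.5 to 34.9 UMIs for Cxcl2 and 1.58 to 2.33 UMIs for Cxcl3, lower at 5 dpw for both, and the share of these cells is also raised by a low mean, so that the 2 genes and the 2 days are not compared by it. Cxcl1 was far more uneven, with UMIs in 76 to 106 neutrophil-like cells per library, and 10 cells held between 46.0% and 63.9% of them, which the counting intervals do not cover.

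The share of thinned neutrophil-like cells with both receptors was below the product of the 2 single shares in all 4 libraries. Cells with Cxcr2 and Cxcr4 made up 5.04% and 4.41% at 1 dpw and 14.0% and 12.1% at 5 dpw, where the products gave 5.86% and 5.83%, then 14.7% and 13.5%. In the Angptl4+/+ library at 5 dpw the counting interval of the joint share, 12.65% to 15.4%, included the product. The ratio of the observed share to the product ran from 0.76 to 0.95 over the libraries. For Cxcl2 with Cxcr2 it ran from 0.98 to 1.0, as nearly all cells had Cxcl2.

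The 6 neutrophil-like clusters differed in their receptors. Cluster 6, led by Ngp, Mmp8, Cd177 and Ly6g, which belong to late granule and maturing neutrophils, had 1454 and 1368 CPM of Cxcr2 at 1 dpw and 1944 and 2211 CPM at 5 dpw in Angptl4+/+ and Angptl4-/- wounds. Cluster 1, led by Csf1 and Acot1, had 434 and 421 CPM at 1 dpw and 662 and 777 CPM at 5 dpw, the lowest of the 6 clusters in every library. Cluster 2, led by the hemoglobin genes Hbb-bs, Hba-a1, Hbb-bt and Hba-a2 and then by Prok2, Lrg1 and Ly6g, had 1206 and 1299 CPM at 1 dpw and 2165 and 2396 CPM at 5 dpw. Cxcr2 was among its 10 leading genes. The 6 genes were left out of the genes used for clustering, but the clusters were made from the same cells, so that these levels are a description. These hemoglobin genes stood at 6210 CPM in cluster 2 of the Angptl4-/- library at 5 dpw and at no more than 1.66 CPM in that cluster in the other 3 libraries, and their part in its values was not tested.

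Cxcr4 ran the other way at 1 dpw. Cluster 1 had 224 and 259.5 CPM and cluster 6 had 46.1 and 34.0 CPM. At 5 dpw cluster 1 had 418 and 380 CPM and cluster 6 had 336 and 326 CPM, so the gap between the 2 clusters was smaller. The range over the 6 clusters at 5 dpw was 136 to 418 CPM in Angptl4+/+ and 160 to 380 CPM in Angptl4-/- wounds, lowest in cluster 8 in both.

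**Figure D3:**
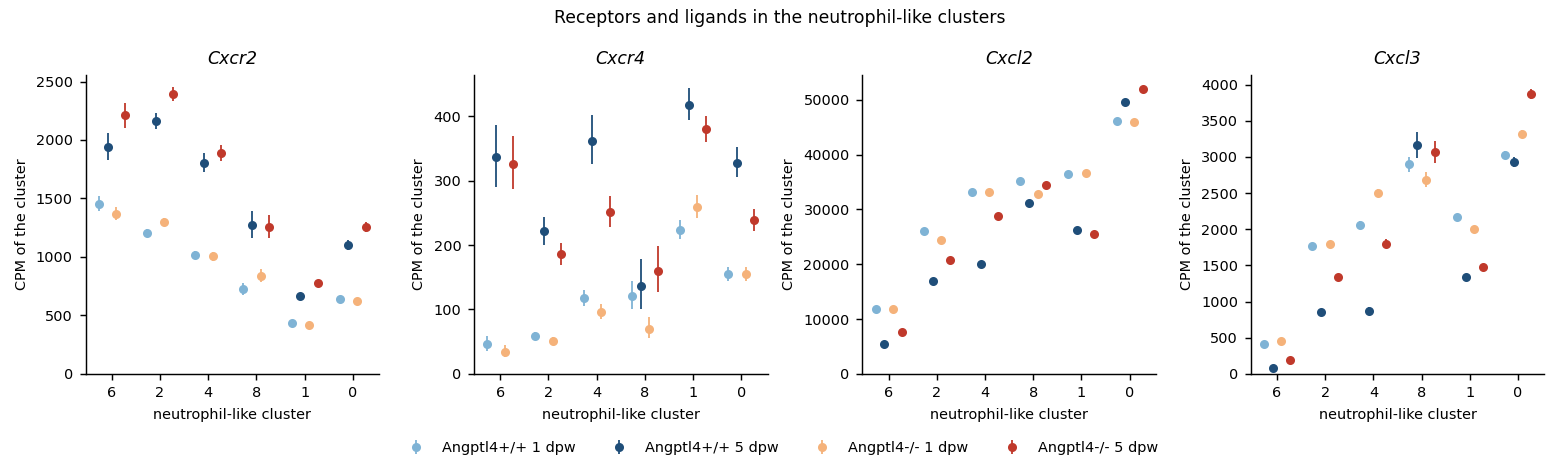
Levels in CPM of Cxcl2, Cxcl3, Cxcr2 and Cxcr4 in the 6 neutrophil-like clusters (order 6, 2, 4, 8, 1, 0), with 1 point per library. Cxcr2 is lowest in cluster 1, at 421 to 777 CPM, and Cxcl2 is highest in cluster 0, at 45917 to 52024 CPM.

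The ligands were lowest where the maturation genes led. Cluster 6 had 11796 and 11880 CPM of Cxcl2 at 1 dpw and 5451 and 7651 CPM at 5 dpw. Cluster 0, led by Csf3, Il1a, F3 and Ccl4, had 46166 and 45917 CPM at 1 dpw and 49558 and 52024 CPM at 5 dpw. Cxcl3 stood between 2930 and 3875 CPM in cluster 0 and between 75.9 and 451 CPM in cluster 6. Cluster 4, led by the interferon-induced Ifit1, Rsad2 and Isg15, lay between them, with 19980 to 33277 CPM of Cxcl2.

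Over the 24 points of cluster and library, the genes whose log2 levels were most like those of each member were found among 8723 genes. The points share libraries and depth, and the values are descriptions. Nearest to Cxcl2 were Rab20 (r = 0.984), Cxcl3 (r = 0.975) and Ccl4 (r = 0.966). Among the nearest to Cxcr2 were the cytokine receptor gene Crlf2 (r = 0.963), Sycp2 (r = 0.959) and the transcription factor gene Stat3 (r = 0.951). Nearest to Cxcr4 were Prkcd (r = 0.960) and, among the first 5, the nuclear RNA Neat1 (r = 0.938). Between members, r was -0.61 for Cxcr2 with Cxcl2 and -0.01 for Cxcr2 with Cxcr4. Over the 20 points of class and library, Cxcr2 was most like Ccdc126 (r = 0.987) and Hdc (r = 0.985), Cxcl2 most like Ets2 (r = 0.989) and Clec4d (r = 0.987), and Cxcl16 most like Anpep (r = 0.981).

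The comparison of genotypes in neutrophil-like cells asked whether the loss of Angptl4 went with other levels of these genes. A gene was compared where the 2 libraries had at least 100 UMIs together, which 5 members did and Cxcl16 did not, and was counted where it passed 1.5-fold. At 1 dpw 0 of the 5 passed, where 0.943% of all genes compared did upward and 3.63% downward. The log2 ratios of Angptl4-/- over Angptl4+/+ at 1 dpw ran from -0.06 for Cxcr4 to 0.16 for Cxcl1, beside an all-gene median of -0.09.

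At 5 dpw 1 of the 5 passed, where 1.84% of all genes did upward and 3.69% downward. It was Cxcl1, on the lower side, at 70.7 CPM in Angptl4+/+ and 37.8 CPM in Angptl4-/- neutrophil-like cells, a log2 ratio of -0.90 (-1.08 to -0.73). In the Angptl4+/+ library 10 cells held 59.9% of these UMIs and 1 cell held 83 of 611. The thinned shares of cells with a Cxcl1 UMI were 1.93% (1.44% to 2.54%) and 1.32% (0.964% to 1.76%), and these intervals overlapped.

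The other 4 members were within 1.5-fold. Cxcl3 was at 1594 CPM in Angptl4+/+ and 2071 CPM in Angptl4-/- cells, a log2 ratio of 0.38 (0.35 to 0.41). Cxcl2 had a log2 ratio of 0.11 (0.10 to 0.12), Cxcr2 of 0.16 (0.13 to 0.19) and Cxcr4 of -0.26 (-0.34 to -0.19), beside an all-gene median of -0.07. By cluster, Cxcl2, Cxcl3 and Cxcr2 were above 0 in 5 of 6 clusters each and Cxcr4 was below 0 in 5 of 6. The Cxcl3 ratio was largest in cluster 6, where 75.9 CPM stood against 195 CPM.

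In all cells pooled at 5 dpw the ratios were larger, 0.68 for Cxcl2, 0.97 for Cxcl3 and 0.75 for Cxcr2, and -0.66 for Cxcl16. The share of neutrophil-like cells in that comparison was 54.6% in Angptl4+/+ and 73.9% in Angptl4-/- wounds. The ratios within neutrophil-like cells given above are those without this difference in shares.

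**Figure D4:**
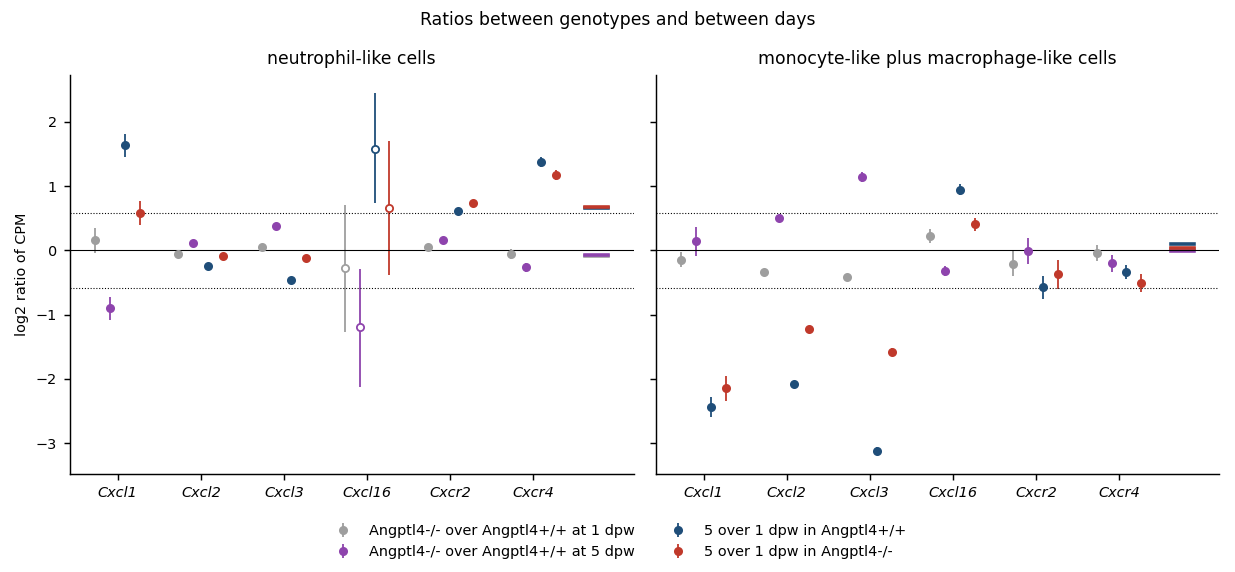
Log2 ratios of CPM for each gene in neutrophil-like and in monocyte-like plus macrophage-like cells, between genotypes and between days, with exact 95% counting intervals, open points for genes under 100 UMIs, dotted lines at 1.5-fold and short bars for the median of all genes. In neutrophil-like cells the day ratio of Cxcr2 (0.62 in Angptl4+/+, but -0.03 under median-of-ratios scaling) sits at the all-gene median of 0.65.

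Between days, the composition of neutrophil RNA shifted as a whole. S100a8 and S100a9 together took 16.9% and 18.6% of neutrophil-like UMIs at 1 dpw and 9.31% and 9.41% at 5 dpw in Angptl4+/+ and Angptl4-/- wounds. The median log2 ratio of 5 over 1 dpw over all genes compared was 0.65 and 0.68, so that ratios are given here relative to it too. Among the most abundant messages, Malat1 went the other way, from 24984 to 34387 CPM in Angptl4+/+ and from 23204 to 30124 CPM in Angptl4-/- cells. Gm42418 did too, from 8950 to 22662 CPM and from 7945 to 18582 CPM. The part of these genes in the shift was not tested.

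In Angptl4+/+ neutrophil-like cells 3 of the 5 members compared were past 1.5-fold upward at 5 dpw and 0 downward, where 53.9% of all genes were upward and 4.54% downward. In Angptl4-/- cells it was 2 of 5 upward and 0 downward, where 55.6% and 4.18% of all genes were. The upward shares are near this background. Cxcr4 went from 127 to 329 CPM and from 122 to 274 CPM, log2 ratios of 1.37 (1.29 to 1.45) and 1.17 (1.09 to 1.25), which are 0.72 and 0.49 above the medians. Counted as UMIs per cell, it went from 0.642 to 1.05 and from 0.604 to 0.961. Cxcr4 was thus higher at 5 dpw on each of these scales. By cluster its log2 ratios ran from 0.17 (-0.33 to 0.65), in cluster 8, to 2.87 in Angptl4+/+ cells, and from 0.55, in cluster 1, to 3.26 in Angptl4-/- cells, highest in cluster 6 in both. Cluster 8 in Angptl4+/+ and clusters 0 and 1 in Angptl4-/- cells lay below the all-gene medians of the class.

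Cxcr2 went from 872 to 1340 CPM and from 901 to 1496 CPM, log2 ratios of 0.62 (0.59 to 0.65), which turned to -0.03 under median-of-ratios scaling, and 0.73 (0.70 to 0.76). Relative to the medians these were -0.03 in Angptl4+/+ and 0.05 in Angptl4-/- cells. As UMIs per cell the receptor stood at 4.41 and 4.29 in Angptl4+/+ and at 4.46 and 5.24 in Angptl4-/- cells. The direction in Angptl4+/+ cells therefore depended on the scale. Set to equal cluster shares in every library, Cxcr2 gave 814 and 1373 CPM, then 825 and 1525 CPM, close to the levels of the class.

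Cxcl2 and Cxcl3 did not rise between days as most genes did. Cxcl2 went from 33912 to 28537 CPM and from 32759.5 to 30751 CPM, log2 ratios of -0.25 and -0.09, which are -0.90 and -0.77 relative to the medians. Per cell its mean went from 172 to 91.3 UMIs and from 162 to 108 UMIs. Cxcl3 had log2 ratios of -0.45 (-0.48 to -0.43) and -0.12 (-0.14 to -0.10), with 11.0 and 5.10, then 11.2 and 7.26 UMIs per cell. Depth per cell was lower at 5 dpw, as given above, and enters these per-cell means. Both ligands were below the all-gene median in both genotypes. Of all genes compared, 9.72% in Angptl4+/+ and 12.1% in Angptl4-/- cells had a lower ratio than Cxcl2. For Cxcl3 it was 6.19% and 11.3%.

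Cxcl1 in neutrophil-like cells went from 22.8 to 70.7 CPM in Angptl4+/+ wounds, a log2 ratio of 1.63 (1.46 to 1.81), and from 25.4 to 37.8 CPM in Angptl4-/- wounds, a log2 ratio of 0.58 (0.39 to 0.77). The second value is -0.10 relative to the all-gene median. Cluster 0 had the most of it in Angptl4+/+ cells at 5 dpw, with 206 CPM against 91.6 CPM in Angptl4-/- cells. The few cells that held it were described above.

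In monocyte-like plus macrophage-like cells the 3 Cxcr2 ligands were high at 1 dpw and low at 5 dpw in both genotypes. In Angptl4+/+ cells 3 of 6 members were past 1.5-fold downward and 1 upward, where 7.94% and 12.6% of all genes were. In Angptl4-/- cells 3 of 6 were past it downward and 0 upward, where 7.67% and 8.54% of all genes were. The same 3 ligands, Cxcl1, Cxcl2 and Cxcl3, made up both counts downward.

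Cxcl3 went from 1455 to 166.5 CPM in Angptl4+/+ cells, a log2 ratio of -3.13 (-3.19 to -3.06), and from 1096 to 368 CPM in Angptl4-/- cells, a log2 ratio of -1.57 (-1.63 to -1.52). Cxcl2 went from 8385 to 1988 CPM and from 6616 to 2831 CPM, log2 ratios of -2.08 (-2.10 to -2.06) and -1.22 (-1.25 to -1.20). Cxcl1 went from 151 to 28.0 CPM and from 137 to 30.9 CPM, log2 ratios of -2.43 and -2.15. All 3 were lower at 5 dpw, and the ratios of Cxcl2 and Cxcl3 were further from 0 in Angptl4+/+ than in Angptl4-/- cells, a difference that could not be tested. The share of neutrophil marker RNA in macrophage-like cells was lower at 5 dpw too, from a sum of 12200 to 1980 CPM and of 11031 to 2184 CPM. Neutrophil free RNA was also subtracted, an alternative chosen after seeing the data. In Angptl4+/+ monocyte-like plus macrophage-like cells the log2 ratios were then -2.44 for Cxcl2 and -3.46 for Cxcl3. In Angptl4-/- cells they ran from -1.40 to -0.64 and from -2.03 to -0.99 over all alternatives. In macrophage-like cells alone Cxcl2 went from 9955 to 1867 CPM and from 8192 to 2977 CPM. In monocyte-like cells alone, where it is not read as expression, it went up, from 2163 to 3165 CPM and from 1647 to 2035 CPM.

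Between genotypes, 0 of 6 members passed 1.5-fold in these cells at 1 dpw, where 1.63% of all genes did upward and 1.82% downward. The log2 ratios of Angptl4-/- over Angptl4+/+ were -0.14 for Cxcl1, -0.34 for Cxcl2 (-0.36 to -0.33), -0.41 for Cxcl3 (-0.45 to -0.37) and 0.22 for Cxcl16. At 5 dpw 1 of 6 passed, where 1.68% of all genes did upward and 2.94% downward. It was Cxcl3, on the upper side, at 166.5 CPM in Angptl4+/+ and 368 CPM in Angptl4-/- cells, a log2 ratio of 1.14 (1.07 to 1.22). Cxcl2 was at 1988 and 2831 CPM, a log2 ratio of 0.51 (0.49 to 0.53), within 1.5-fold. The monocyte-like cells, whose level of both ligands is not read as expression, were 144 of these 1682 cells in Angptl4+/+ and 134 of 775 in Angptl4-/- wounds, and their Cxcl2 had a log2 ratio of -0.64 (-0.71 to -0.57). In macrophage-like cells alone Cxcl2 was at 1867 and 2977 CPM, a log2 ratio of 0.67 (0.65 to 0.70), past 1.5-fold, and Cxcl3 was at 166 and 414 CPM, a log2 ratio of 1.31 (1.24 to 1.39). Cxcl1 had a log2 ratio of 0.14 (-0.08 to 0.37).

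Both macrophage-like clusters had more Cxcl3 in Angptl4-/- wounds at 5 dpw. In cluster 3, led by Retnla, Arg1 and Fn1, it was at 278 CPM in Angptl4+/+ and 730 CPM in Angptl4-/- cells, a log2 ratio of 1.39 (1.31 to 1.48). In cluster 5, led by Ms4a7, C1qa and Apoe, genes known from mature tissue macrophages, it was at 25.7 and 127 CPM, a log2 ratio of 2.30 (2.04 to 2.58). Cxcl2 had log2 ratios of 0.66 in cluster 3 and 0.92 in cluster 5. The background of neutrophil RNA was measured for the macrophage-like class and not for each cluster. The 25.7 CPM of Cxcl3 in cluster 5 stood beside 1594 CPM in neutrophil-like cells of that library. The median marker in the macrophage-like class was at 1.79% of its neutrophil-like level there. That low level of Cxcl3 is not set apart from background, and the ratio of 2.30 rests on it. At 1 dpw, by contrast, Cxcl3 was at 2439 and 2468 CPM in cluster 3, a log2 ratio of 0.02, and at 742 and 313 CPM in cluster 5, a log2 ratio of -1.25 (-1.36 to -1.13).

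Shares of thinned cells gave the same order at 5 dpw. In cluster 3 a Cxcl3 UMI was found in 9.57% (7.77% to 11.6%) of Angptl4+/+ and 22.4% (17.98% to 27.3%) of Angptl4-/- cells. In cluster 5 it was found in 1.42% (0.617% to 2.79%) and 5.18% (2.99% to 8.27%) of cells. The 2 intervals did not overlap in either cluster, but they cover counting error within 1 library per genotype and not the variation between mice or libraries. Cxcl2 was found in 54.7% and 68.4% of cluster 3 cells and in 33.3% and 44.0% of cluster 5 cells. The unthinned Cxcl3 shares were 17.4% and 37.3% in cluster 3, with median depths of 6843 and 10205 UMIs, and 4.80% and 14.9% in cluster 5, with median depths of 10346 and 12418 UMIs.

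**Figure D5:**
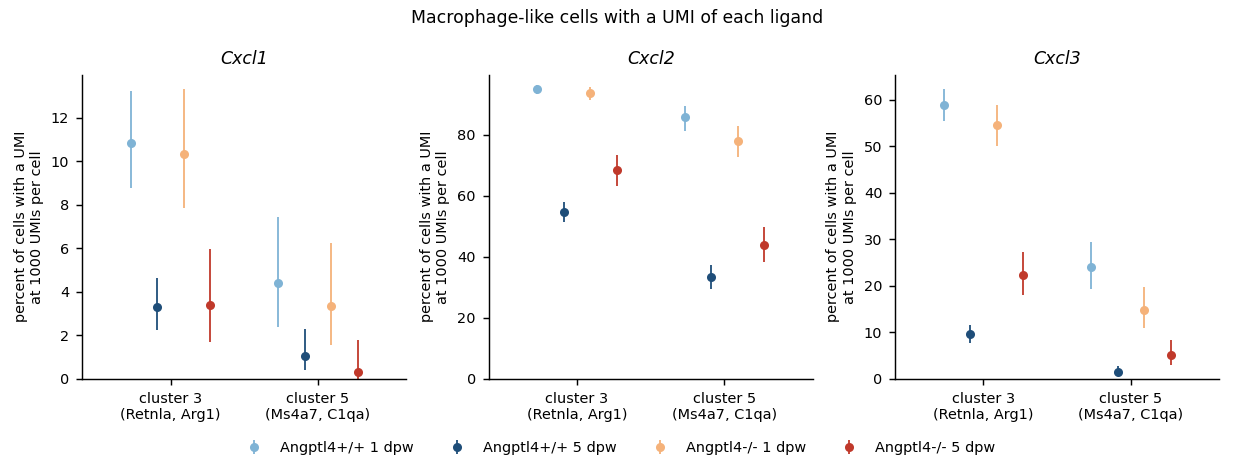
Percent of macrophage-like cells of clusters 3 and 5 with a UMI of each ligand, each cell thinned to 1000 UMIs, by library, with Clopper-Pearson 95% bars. For Cxcl3 in cluster 3 the 1 dpw libraries stand at 58.9% and 54.5% and the 5 dpw libraries at 9.57% in Angptl4+/+ and 22.4% in Angptl4-/- wounds.

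Cxcl3 was held by few macrophage-like cells at 5 dpw. Of the Cxcl3 UMIs of macrophage-like cells, 10 cells held 43.1% (Angptl4+/+) and 41.8% (Angptl4-/-), where at 1 dpw 10 cells held 10.1% and 15.0%. For Cxcl2 at 5 dpw the 10 cells held 9.87% and 17.3%. The sum of the 10 neutrophil markers in macrophage-like cells at 5 dpw was 1980 CPM in Angptl4+/+ and 2184 CPM in Angptl4-/- wounds. With neutrophil free RNA subtracted, an alternative chosen after seeing the data, the log2 ratio of Cxcl2 between genotypes at 5 dpw was 0.74, and Cxcl3 stayed past 1.5-fold. The share of thinned macrophage-like cells with both Cxcl2 and Cxcl3 stood to the product of the single shares at a ratio of 1.06 and 1.10 at 1 dpw and of 1.90 and 1.59 at 5 dpw.

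Cxcl2 and Cxcl3 share a run of 110 identical bases in their coding transcripts, 850 to 960 bases from the 3′ end of Cxcl3 and at least 939 bases from that of Cxcl2. Reads wholly inside it could not be told apart, and the libraries count the 3′ ends of messages. Cxcl1 shares at most 23 bases with either.

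Cxcl16 in monocyte-like plus macrophage-like cells went from 146 to 282 CPM in Angptl4+/+ wounds, a log2 ratio of 0.95 (0.86 to 1.03), and from 171 to 227 CPM in Angptl4-/- wounds, a log2 ratio of 0.41 (0.31 to 0.51). The first of these is past 1.5-fold and the second is not, and the difference between them was not tested. In macrophage-like cells alone the log2 ratios were smaller, 0.75 (0.67 to 0.83) and 0.26 (0.16 to 0.37). Between genotypes at 5 dpw its log2 ratio was -0.32 (-0.39 to -0.24), but 0.15 as mean UMIs per cell, so that its direction depended on the scale. In dendritic cell-like cells the day ratios of Cxcl16 were -0.26 and -0.36, within 1.5-fold. The part of the mix of dendritic cells in these ratios was not tested. The thinned shares of macrophage-like cells with a Cxcl16 UMI were 16.2% and 17.3% at 1 dpw and 23.8% and 23.1% at 5 dpw (unthinned 42.8% and 45.1%, then 63.7% and 65.5%), against at most 0.271% of neutrophil-like cells.

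Its receptor was found in another class and its sheddases in the macrophage-like cells too. Cxcr6, the receptor, was at 101 and 225 CPM at 1 dpw and at 152 and 213 CPM at 5 dpw in NK cell/T cell-like cells of Angptl4+/+ and Angptl4-/- wounds, and at most 7.52 CPM in the myeloid classes. The sheddases Adam10 and Adam17 were at 155 to 202 CPM and 148 to 208 CPM in macrophage-like cells. None of the sheddases compared passed 1.5-fold between days or genotypes in monocyte-like plus macrophage-like cells.

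The other genes of the pathway were taken from 7 lists. Of 10 other CXC ligands found, 2 could be compared in neutrophil-like cells, and 1 was past 1.5-fold downward between days in both genotypes, where 4.54% and 4.18% of all genes were. It was the interferon-induced Cxcl10, at 136 and 56.5 CPM in Angptl4+/+ and at 127 and 39.6 CPM in Angptl4-/- cells. In monocyte-like plus macrophage-like cells 4 of 5 were past it downward in Angptl4+/+ and 3 of 5 in Angptl4-/- wounds, where 7.94% and 7.67% of all genes were. Cxcl5, another Cxcr2 ligand, was at 33.1 and 0.348 CPM, then at 13.5 and 4.28 CPM. Ppbp, a platelet-derived Cxcr2 ligand, was at 245 and 9.46 CPM, then at 123 and 49.9 CPM.

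Between genotypes in these cells at 5 dpw, 2 of 5 other ligands were past 1.5-fold upward and 1 downward, where 1.68% and 2.94% of all genes were. Ppbp was at 9.46 CPM in Angptl4+/+ and 49.9 CPM in Angptl4-/- cells, and Pf4, another platelet chemokine that macrophages also make, at 787 and 1279 CPM. Cxcl14 was at 13.9 and 5.92 CPM. At 1 dpw 3 of 5 were past it downward and 0 upward, where 1.82% and 1.63% of all genes were, among them Cxcl5 (33.1 and 13.5 CPM) and Ppbp (245 and 123 CPM).

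Inducers of the ligands were compared between days in monocyte-like plus macrophage-like cells. In Angptl4+/+ cells 5 of 6 were past 1.5-fold downward and 1 upward, where 7.94% and 12.6% of all genes were. In Angptl4-/- cells 4 of 5 were downward and 0 upward, where 7.67% and 8.54% of all genes were. The list medians were -1.15 and -0.87 beside all-gene medians of 0.10 and 0.04. Il1b, which encodes interleukin-1 beta, was at 2803 and 1216 CPM in Angptl4+/+ and at 2480 and 1357 CPM in Angptl4-/- cells. Tnf was at 141 and 49.1 CPM, then at 103 and 56.7 CPM. The 1 gene past it upward was Il6, at 5.35 and 14.4 CPM.

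Of the 12 genes of NF-kB feedback and mRNA decay, 4 in Angptl4+/+ and 3 in Angptl4-/- cells were past 1.5-fold downward between days and 0 upward, beside the same shares of all genes. Tnfaip3, a brake on NF-kB signalling, was at 204 and 76.8 CPM, then at 174 and 87.8 CPM. Nfkbia, which encodes the inhibitor IkB-alpha, was at 1269 and 564 CPM, then at 982 and 658 CPM. Between genotypes 0 of the 12 passed at either day in these cells.

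In neutrophil-like cells the same 12 genes gave 2 and 3 past 1.5-fold upward between days, where 53.9% and 55.6% of all genes were, with list medians of 0.07 and 0.13 beside all-gene medians of 0.65 and 0.68. Zfp36, which marks short-lived messages such as Cxcl2 for decay, was at 898 and 1891 CPM in Angptl4+/+ and at 771 and 1499 CPM in Angptl4-/- cells. Of the inducers, 1 of 5 was past 1.5-fold downward in Angptl4+/+ cells, and 2 of 5 were downward and 2 upward in Angptl4-/- cells, beside all-gene shares of 4.54% and 4.18% downward. Tnf was at 503 and 235 CPM, then at 411 and 190.0 CPM. Csf3 was lower at 5 dpw as well, at 67.3 and 45.7 CPM, then at 105 and 39.7 CPM. Il1b was higher, at 11223 and 15583 CPM, then at 10228 and 15780 CPM. Osm was also higher, at 591 and 886 CPM, then at 615 and 1012 CPM.

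Of 15 genes of receptor signalling and desensitization compared in neutrophil-like cells, 6 in Angptl4+/+ and 3 in Angptl4-/- wounds were past 1.5-fold upward between days, where 53.9% and 55.6% of all genes were, with list medians of 0.36 and 0.35, below the all-gene medians. Downward there were 0 and 1, the latter Rac2, at 632 and 376 CPM in Angptl4-/- cells, which encodes a GTPase of neutrophil migration. Rgs2, which limits G-protein signalling, was at 335 and 715 CPM in Angptl4+/+ cells. Of 12 genes of neutrophil release and ageing, 2 were past 1.5-fold upward in each genotype, below the all-gene shares of 53.9% and 55.6%. Downward there were 1 in Angptl4+/+ and 2 in Angptl4-/- cells, where 4.54% and 4.18% of all genes were. The list medians were 0.15 and 0.16, below the all-gene medians of 0.65 and 0.68. Itga4, an integrin subunit known to be higher on aged neutrophils, was at 13.3 and 67.3 CPM, then at 11.6 and 59.9 CPM. Itgam, an integrin subunit of the same list, was lower at 5 dpw in Angptl4+/+ cells, at 610 and 458 CPM, a log2 ratio of -0.42. Csf3r, the receptor for G-CSF, was at 608 and 1228 CPM, then at 633.5 and 1203 CPM. Mmp8, a granule protease, was at 447 and 133 CPM, then at 520 and 139 CPM.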

How the data were processed

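Per the labels and the study's methods, the authors aligned reads of Chromium 3' V3 libraries to mm10 with Cell Ranger 3.1.0 and worked further in Seurat 3.0. The deposited files hold raw UMI counts per gene and barcode, 1 matrix for each of the 4 libraries, with no normalization. From these counts, cells with at least 200 genes and at most 10% mitochondrial UMIs were kept, integrated over 2000 variable genes from which 23 genes had been left out, the 6 members among them, and clustered in Seurat 5.3.0 (R 4.3.3, 30 dimensions, Louvain resolution 0.5). Classes were named from marker lists. Called doublets were kept. UMIs were summed per class and library and given as CPM with Poisson intervals. Ratios carry exact conditional binomial intervals, and shares Clopper-Pearson ones, all for counting error only. With 1 library per group there was no test. The intervals of the ratios were tested on simulated Poisson counts. Such counts leave out the clumping of UMIs in few cells, so that the test does not show how the intervals do under it. The 6 genes and the 7 lists were chosen with earlier results of these data known. Genes were named as these members, the 5 genes most like each (at least 500 UMIs, log2(CPM + 10)) and up to 4 members of a list with the largest ratios. As alternatives, 8 were planned and 2 were added.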

Additional observations from a re-analysis of the deposited data

Results flagged for a closer look

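In neutrophil-like and in monocyte-like plus macrophage-like cells, the log2 ratio of Angptl4-/- over Angptl4+/+ had opposite signs at 1 and 5 dpw, with both counting intervals clear of 0, in 4 cases. With 1 library per genotype and day, none of these differences was tested. The share of all genes that met this rule was not computed, and at these depths a ratio as small as -0.05 was clear of 0. The count is therefore not read as a trait of these genes. Cxcl3 in monocyte-like plus macrophage-like cells had -0.41 at the first day and 1.14 at the later one. For Cxcl2 in the same cells it was -0.34 and 0.51. Cxcl16 in these cells ran the other way, with 0.22 and -0.32, but the second of these values was 0.15 as mean UMIs per cell. For Cxcl2 in neutrophil-like cells it was -0.05 and 0.11, and the first of these values was 0.04 under median-of-ratios scaling. Of these 4, Cxcl3 was past 1.5-fold, and that at 5 dpw. Cxcl1 also had opposite signs in neutrophil-like cells (0.16 and -0.90) and in monocyte-like plus macrophage-like cells (-0.14 and 0.14), but its interval included 0 at 1 and at 5 dpw, respectively.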

How the results depend on the processing

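For 48 ratios, 8 planned and 2 added alternatives were computed, the added ones (mean UMIs per cell, and neutrophil free RNA subtracted) chosen after seeing the data. Over all 48 ratios, 308 alternative values lay within the counting interval of the main ratio and 142 lay outside it. A further 2 reversed a ratio past 1.5-fold. Of 134 alternative values of the 14 ratios past 1.5-fold, 132 had the same direction and 129 also stayed past 1.5-fold. Both sets include the alternative with genes of at least 1 UMI, which changes the genes compared and not the ratios. Its values were therefore fixed to be the same. Both reversals were Cxcr2 in Angptl4+/+ neutrophil-like cells between days, -0.03 under median-of-ratios scaling and -0.04 as mean UMIs per cell. Between genotypes at 5 dpw, the count of members past 1.5-fold in neutrophil-like cells went from 1 to 2 with genes of at least 1 UMI compared, which let in Cxcl16. In monocyte-like plus macrophage-like cells it went from 1 to 2 with called doublets left out (Cxcr2, log2 ratio 0.63, besides Cxcl3), to 3 as mean UMIs per cell (Cxcl1, Cxcl2, Cxcl3) and to 2 with neutrophil free RNA subtracted (Cxcl2, Cxcl3). On the per-cell scale the ligands moved from 0.14 to 0.61 (Cxcl1), 0.51 to 0.97 (Cxcl2) and 1.14 to 1.61 (Cxcl3). Members that did not pass moved upward too, Cxcl16 from -0.32 to 0.15 and Cxcr4 from -0.20 to 0.26. Depth per cell enters these means, and the share of all genes past 1.5-fold on this scale is not given here. The count of 3 is therefore not read as a trait of these genes. The causes of the changed counts in these cells were not tested. The log2 ratio of Cxcl3 there ranged from 1.06 to 1.61 over its alternatives, and that of Cxcl1 in neutrophil-like cells at 5 dpw from -1.14 to -0.76. No paired analysis was possible because each group was 1 library. Cxcl16 in neutrophil-like cells had 17 to 29 UMIs per library, too few for the count of members.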
